A study of Mus musculus with 2 samples.

Results

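The atypical chemokine receptors are the 4 genes Ackr1, Ackr2, Ackr3 and Ackr4. They were taken by symbol from a table of 27998 gene entries, not by their values, and all 4 were present. Atypical chemokine receptors bind chemokines with high affinity but do not couple to the G proteins through which classical chemokine receptors drive cell migration. They take up, transport or retain their ligands and so shape how much chemokine leukocytes meet. In lymph nodes, ACKR1 is a known product of venules and high endothelial venules, the vessels through which lymphocytes enter, while ACKR4 is known from the lymphatic endothelium that forms the ceiling of the subcapsular sinus.

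The receptors were described in droplet single-cell data of nodes that drain the head, the mandibular lymph nodes of the mouse. The SAH library held cells taken 24 h after subarachnoid haemorrhage, a bleed into the space around the brain that was set up by infusion of autologous blood. The sham library held cells taken 24 h after a sham operation. Nodes of 20 mice were pooled in each library, CD45-bearing cells were depleted, and the cells that anti-CD31 or anti-podoplanin antibody held on beads were kept. The cells compared are what remained after both steps; strain, sex and age are not given in the sources used here. There was 1 library for each group and no replicate, so no test was made, and every difference compares these 2 libraries and not the conditions. Levels are in counts per 1000000 UMIs (CPM), summed over the cells of a population. A UMI is the tag of a single captured RNA molecule. A fold is the SAH level over the sham level. Bracketed values are exact 95% intervals that cover counting error only.

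Ackr3 was lower in the SAH library in all 3 classes of cells examined, with folds of 0.509 in lymphatic endothelium, 0.479 in blood endothelium and 0.366 in fibroblastic stroma. The folds of Ackr1, Ackr2 and Ackr4 stayed within 1.5-fold in each class where the receptor had at least 50 UMIs. Ackr2 in fibroblastic stroma had fewer. In blood endothelium the intervals of Ackr2, 1.34 [1.06, 1.71], and Ackr4, 1.41 [1.20, 1.67], passed 1.5. Ackr1 was 0.815-fold in blood endothelium, Ackr2 1.14-fold and Ackr4 1.11-fold in lymphatic endothelium. Each receptor kept its own place in both libraries. Ackr1 was highest in cells with genes of high endothelial venules, Ackr2 in lymphatic cells, Ackr3 in Pi16-positive fibroblastic cells and Ackr4 in lymphatic cells with the ceiling gene Btnl9.

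In the mouse genome GRCm38, the annotation places Ackr3 at chr1:90203980-90216751 on the plus strand and Ackr2 at chr9:121898355-121911074 on the plus strand. Ackr1 lies at chr1:173331886-173333750 on the minus strand. It shares the 493 bases at its 5′ end, exons included, with the same-strand neighbour Cadm3, an adhesion molecule gene. Per the labels, the cDNA was tagged at the 5′ end. Ackr4 lies at chr9:104084157-104126933 on the minus strand, antisense to Acad11, a fatty acid oxidation gene, with overlapping exons. Whether the authors' counting used strand is not given in the sources used here. The counts of Ackr1 and Ackr4 are thus uncertain, to the extent that reads could fall to these neighbours or be counted for neither gene. The levels of Cadm3 and Acad11 are given beside them below. Ackr3 was the receptor whose level differed most between the libraries, and Ackr2 was 1.14-fold in lymphatic endothelium. The 250 bases before the RefSeq start site are shown for Ackr3 and Ackr2, since these 2 windows hold no annotated exon. They are given 5′ to 3′ on the strand of the gene, from RefSeq in the build GRCm38.p6, at chr1:90203730-90203979 for Ackr3 and chr9:121898105-121898354 for Ackr2. Capitals mark a match to a TATA box.
Ackr3: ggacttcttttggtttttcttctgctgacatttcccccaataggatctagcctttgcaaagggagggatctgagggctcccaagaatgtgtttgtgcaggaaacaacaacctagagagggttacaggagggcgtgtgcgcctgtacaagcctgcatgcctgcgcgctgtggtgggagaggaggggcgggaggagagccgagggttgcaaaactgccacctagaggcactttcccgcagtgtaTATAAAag
Ackr2: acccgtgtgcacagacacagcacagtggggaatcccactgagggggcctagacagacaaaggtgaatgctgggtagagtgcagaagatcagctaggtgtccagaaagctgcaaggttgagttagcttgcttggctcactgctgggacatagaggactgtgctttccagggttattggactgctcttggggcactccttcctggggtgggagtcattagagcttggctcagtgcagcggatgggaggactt
Both strands were searched for 6 short motifs, none of which contains another: the TATA box TATAAA, the GATA motif AGATAA, the hypoxia response core ACGTG, the AP-1 motif TGANTCA, an NF-kB type motif GGANTTTCC and an interferon response type motif GAAANNGAA. Ackr3 held 1 match, to TATAAA, from 8 to 3 bases before the start. Of 32851 mouse windows of the same length, 12.4% hold TATAAA, 9.99% AGATAA, 16.6% ACGTG, 6.75% TGANTCA, 1.07% GGANTTTCC and 7.13% GAAANNGAA. None of the 6 was found in the Ackr2 window. A match or its absence describes these letters only.

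The SAH library held 13766 barcodes with 78497486 UMIs and the sham library 13952 barcodes with 72860197 UMIs. With at least 500 genes and at most 10% mitochondrial UMIs, 11454 SAH and 11157 sham cells were kept, with medians of 5747 and 5039 UMIs and of 3.84% and 4.71% mitochondrial UMIs. The libraries shared 49 kept barcodes. Although the labels name lymphatic endothelial cells, a UMI of Prox1, the transcription factor of lymphatic identity, was present in 22.4% of SAH and 21.2% of sham cells. These 2562 SAH and 2364 sham cells are called LEC here. Blood endothelial cells (BEC) had no Prox1 UMI, at least 1 UMI of the endothelial gene Pecam1 and at least 1 of Ly6c1 or Flt1, and numbered 6480 SAH and 6329 sham cells. Fibroblastic stroma, with no Pecam1 or Prox1 UMI and at least 3 UMIs of the matrix genes Dcn and Col3a1, numbered 1631 SAH and 1532 sham cells. Median depth was 8193 and 6871.5 UMIs in SAH and sham LEC, 4754 and 4602 in BEC, and 6336 and 4767.5 in stroma.

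The classes carried their markers. In LEC, 7 of 8 lymphatic markers passed 50 CPM in each library, against 1 of 8 in BEC and 2 of 8 in stroma. Their summed level did not separate the classes. It was 4945 CPM in SAH and 3514 in sham LEC, 5431 and 3098 in BEC, and 15854 and 10613 in stroma. The list includes the chemokine gene Ccl21a, whose levels are given below. All 7 blood endothelial markers passed in BEC, but also in LEC, where their summed level was 3775 CPM in SAH and 2823 in sham, against 11943 and 10268 in BEC. All 6 fibroblastic markers passed in stroma, and 4 of them in LEC and in BEC. The classes were thus not pure. At least 3 UMIs of Dcn and Col3a1 were present in 28.6% of SAH and 18.2% of sham LEC, and in 13.9% of SAH and 7.52% of sham BEC. Scrublet, a doublet caller, marked 15.7% of SAH and 13.03% of sham LEC. Each class was divided further by single genes. LEC were divided by Btnl9 (ceiling gate), Madcam1 or Coch (floor gate), Marco (Marco gate), several of these, or none. BEC were divided by Fut7 or Chst4, which make the sugar ligands of L-selectin in high endothelial venules (HEV gate), by the arterial genes Gja5 or Sema3g (arterial gate), by both, and otherwise by Selp or Vwf (venular gate) or none (remaining). Stroma was divided by Pi16, a gene of adventitial fibroblasts, by Ccl19, a chemokine of T-zone reticular cells, or neither. A gate is a rule on counts and can hold cells of more than 1 type.

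Ackr1, also called DARC, binds many inflammatory CC and CXC chemokines. Of all its UMIs in kept cells, 87.2% in the SAH and 90.4% in the sham library lay in BEC. In the HEV gate its level was 547 CPM in 1078 SAH cells and 645 in 985 sham cells. The venular gate followed with 234 in SAH and 382 in sham, and cells with both HEV and arterial genes had 240 in SAH and 273 in sham. In SAH the venular gate and the cells with both genes overlapped in their intervals, while in sham they did not. The arterial gate stood at 9.45 and 10.7 and the remaining BEC at 14.9 and 24.5 CPM in SAH and sham. Thus the HEV gate stood first in both libraries, the venular gate and the cells with both genes came next, and the arterial gate was low. These are gates and not pure cell types. The 6 venular markers, Selp and Vwf among them, summed to 3846 CPM in SAH and 3294 in sham in the HEV gate, against 2514 and 2314 in the venular gate.

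**Figure D1:**
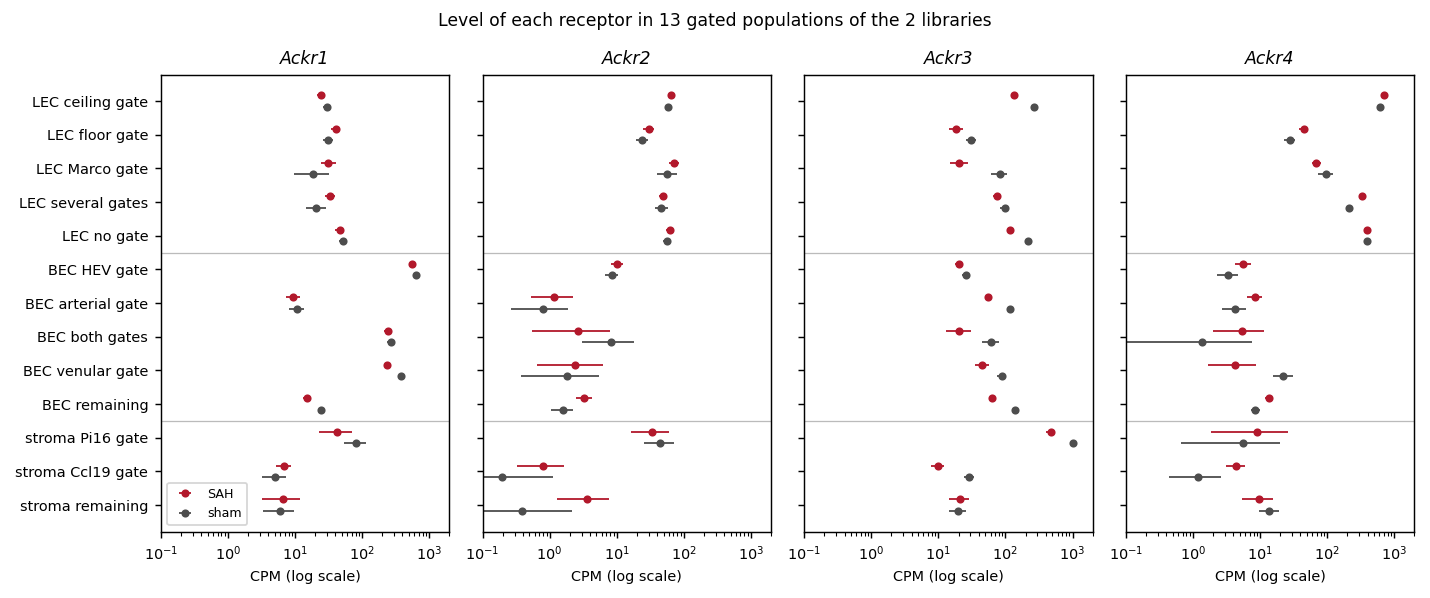
Level of each receptor (CPM, log axis) in 13 gated populations, SAH in red above sham in grey; bars are exact 95% Poisson intervals, drawn to the left edge where they reach below it. Ackr1 reaches 547 in SAH and 645 in sham in the HEV gate, Ackr3 475 and 1019 in the Pi16 gate, and Ackr4 694 and 604 in the ceiling gate.

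Most HEV-gate cells carried Ackr1, with at least 1 UMI in 68.5% of SAH [65.6, 71.2] and 73.5% of sham cells [70.6, 76.2], at median depths of 8185.5 and 8601 UMIs. After each cell was thinned to 2000 UMIs these shares were 49.8% and 53.6%. The leukocyte gate held cells with Ptprc and no UMI of Pecam1, Prox1, Dcn or Col3a1. Its rule leaves out cells that took up RNA of those genes, so receptor shares there can understate RNA from other cells. An Ackr1 UMI was found in 0 of 42 SAH cells, which by the 3-count limit allows a share of cells with a UMI of up to 7.14%. It was found in 1 of 103 sham cells (0.971%). Median depths in this gate were 2818.5 UMIs in SAH and 2334 in sham. At least 5 UMIs of Ackr1 were present in 37.4% of SAH and 44.1% of sham HEV-gate cells. Of 7 HEV markers, 6 in SAH and 7 in sham passed 50 CPM in the HEV gate, with summed levels of 42625 and 42050 CPM. Glycam1, a scaffold for L-selectin ligands, was at 38886 CPM in SAH and 38625 in sham. The summed level was not particular to this gate. In the LEC floor gate it was 16778 CPM in SAH and 20565 in sham, with 3 of 7 markers past 50 CPM.

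Over all BEC, Ackr1 averaged 166 CPM in SAH and 204 in sham, a fold of 0.815 [0.788, 0.843]. The fold was 0.849 [0.818, 0.881] in the HEV gate, 0.611 [0.537, 0.695] in the venular gate and 0.607 [0.519, 0.710] in the remaining BEC. In the venular gate 33.9% of SAH and 46.9% of sham cells had a UMI, and after thinning 23.2% and 36.8%. In the arterial gate the fold was 0.887 [0.627, 1.26], an interval that includes 1. The value over all BEC was 0.922 where BEC with at least 2 UMIs of the lymphatic genes Lyve1 and Mmrn1, 260 SAH and 219 sham cells, were moved to LEC. In those moved cells Ackr1 stood at 354 in SAH and 738 in sham, and 736 of their 780 Ackr1 UMIs in SAH and 1595 of 1725 in sham came from cells of the HEV gate. Cadm3, the overlapping neighbour, had 3.28 CPM in SAH and 1.80 in sham HEV-gate cells.

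In LEC, Ackr1 had 33.1 CPM in SAH and 34.6 in sham, a fold of 0.958 [0.861, 1.07]. Its UMIs were unevenly placed. The 222 SAH and 108 sham LEC with a UMI of Fut7 or Chst4 had 163 and 244 CPM, against 17.1 and 20.0 in the LEC without. These cells held 405 of 752 Ackr1 UMIs in SAH LEC and 294 of 642 in sham LEC. Whether cells of mixed origin give this level was not tested. With the wider lymphatic gate just described, which brings those HEV-gate cells into LEC, the LEC fold was 0.547. In stroma Ackr1 was low, at 7.80 in SAH and 8.69 in sham. It reached 42.4 in SAH and 80.8 in sham in the Pi16 gate, from 14 and 29 UMIs, where Cadm3 was at 96.9 and 125. Both genes were found together in 8 of the 12 SAH and 13 of the 21 sham Pi16-gate cells with Ackr1. Over the whole gate, Cadm3 was found in 17 of 60 SAH and 31 of 73 sham cells.

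Ackr2, which takes up and degrades inflammatory CC chemokines, was mainly a lymphatic transcript. LEC held 84.8% of its UMIs in the SAH and 83.0% in the sham library. Its level in LEC was 55.9 CPM in SAH and 48.9 in sham, a fold of 1.14 [1.05, 1.25]. The Marco gate had 71.9 and 56.9, the ceiling gate 63.8 and 58.3, and the LEC with no gate 62.0 and 56.0 CPM in SAH and sham, with overlapping intervals in each library. The floor gate was lower, at 29.9 in SAH and 23.6 in sham, and its interval lay below that of the ceiling gate in both. Among the 5 LEC populations the fold ran from 1.07 to 1.26, and each interval included 1.

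At least 1 Ackr2 UMI was present in 30.6% of SAH and 25.8% of sham LEC, and in 9.05% and 8.65% after thinning, so the shares lay closer at equal depth. None of the 42 SAH and 103 sham leukocyte-gate cells had one. In BEC the level was 4.56 in SAH and 3.395 in sham, a fold of 1.34 [1.06, 1.71]. BEC with at least 2 UMIs of Lyve1 and Mmrn1 had 18.6 and 18.4 CPM in SAH and sham, against 3.67 and 2.37 in the other BEC. In stroma Ackr2 was at 2.23 in SAH and 2.27 in sham, and in the Pi16 gate at 33.3 and 44.6 from 11 and 16 UMIs.

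Ackr3, also called CXCR7, takes up CXCL12 and CXCL11 and is a scavenger of the vascular peptide adrenomedullin. Unlike the other receptors it was spread over classes. LEC held 48.1% of its UMIs in SAH and 42.0% in sham, BEC 42.4% and 47.4%, and stroma 6.51% and 7.12%. The Pi16 gate had 475 CPM in 60 SAH cells and 1019 in 73 sham cells, ahead of every other population in both libraries. The ceiling gate followed with 134 in SAH and 265 in sham. Next came the LEC with no gate, at 118 in SAH and 214 in sham, with intervals that overlapped those of the ceiling gate in SAH but not in sham. The HEV gate was low, at 20.4 in SAH and 26.0 in sham, as were the floor gate at 18.3 and 31.0 and the Ccl19 gate at 9.82 and 28.6.

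Between the libraries Ackr3 was lower in SAH in each class. In LEC it had 90.5 CPM in SAH and 178 in sham, a fold of 0.509 [0.481, 0.538]. In BEC it had 48.9 in SAH and 102 in sham, a fold of 0.479 [0.453, 0.507]. In stroma it had 25.8 in SAH and 70.6 in sham, a fold of 0.366 [0.316, 0.423]. Of 13 gated populations, 12 had a fold whose interval lay below 1, and in 10 the level was at least 1.5-fold lower. The folds were 0.507 in the ceiling gate, 0.466 in the Pi16 gate, 0.474 in the arterial gate and 0.344 in the Ccl19 gate. The Marco-gate fold of 0.250 rested on 1 sham cell, which held 36 of 53 Ackr3 UMIs. Without that cell the sham level there was 27.2, less than 1.5-fold from the 20.4 in SAH, so the count of 10 includes a population that 1 cell decides. Without the top cell of each library the Marco-gate fold was 0.645 [0.353, 1.23] and 11 of the 13 intervals lay below 1. The HEV gate, at 0.786 [0.647, 0.953], and LEC with several gates, at 0.751 [0.622, 0.910], were nearer to 1. The stroma with neither Pi16 nor Ccl19 had 20.8 in SAH and 19.7 in sham, a fold of 1.06 [0.667, 1.66].

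**Figure D2:**
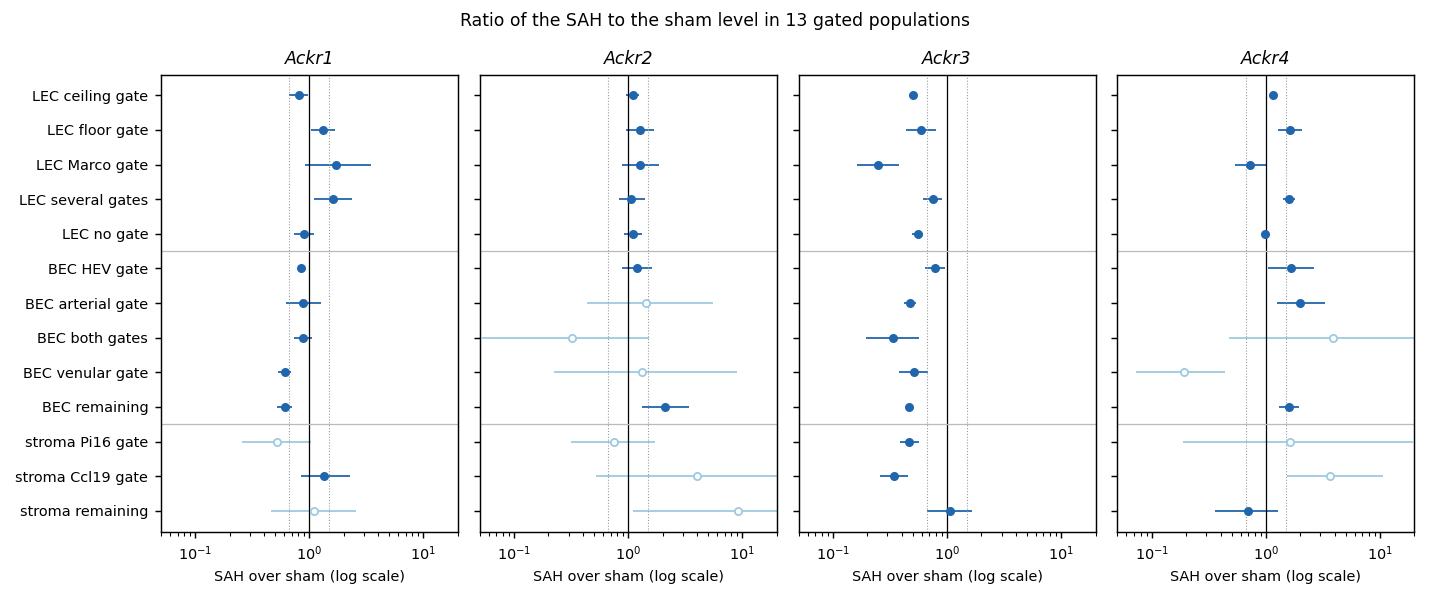
SAH over sham level of each receptor (log axis) in the same 13 populations, with exact conditional 95% intervals; open symbols have fewer than 50 UMIs over both libraries, intervals that pass the axis are clipped, the solid line is 1 and dotted lines mark 1.5-fold. Ackr3 lies left of 1 in 12 of the 13 populations, with the fold of 1.06 in stroma remaining as the exception.

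The difference was also present in the share of cells. At least 1 Ackr3 UMI was found in 32.2% of SAH and 43.3% of sham LEC, in 18.1% and 30.5% of BEC, and in 8.40% and 12.1% of stroma. At 2000 UMIs per cell the shares were 13.6% and 22.2% in LEC [12.3, 15.0 and 20.6, 24.0], 8.99% and 17.7% in BEC, and 4.14% and 6.81% in stroma. In the leukocyte gate 0 of 42 SAH and 1 of 103 sham cells had one. In the ceiling gate 5.75% of SAH and 14.4% of sham cells had at least 5 UMIs, and in the Pi16 gate 20.0% of SAH and 42.5% of sham cells.

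The stroma value rested on few cells, since the Pi16 gate gave 157 of 278 Ackr3 UMIs in SAH and 366 of 560 in sham. With the subgates held at equal shares in both libraries the stroma fold was 0.467. Without the 10 cells of each library with the most Ackr3 UMIs the Pi16-gate fold was 0.347. In that gate Ccl21a, a chemokine of T-zone reticular cells, stood at 5593 CPM in SAH and 262 in sham, while Pi16 itself was at 1967 and 2253. The part of such cells in the Pi16-gate value was not tested. In LEC, cells with at least 3 UMIs of Dcn and Col3a1 had 97.6 CPM of Ackr3 in SAH and 176 in sham. The other LEC had 86.7 in SAH and 178 in sham, so the difference was present on both sides of that split.

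Ackr4, also called CCRL1, takes up CCL19, CCL21 and CCL25, the chemokines that guide cells bearing CCR7 or CCR9. LEC held 92.3% of its UMIs in SAH and 91.7% in sham. The ceiling gate had 694 CPM in 957 SAH cells and 604 in 916 sham cells. The LEC with no gate followed at 392 in SAH and 400 in sham. The Marco gate was at 69.4 in SAH and 95.4 in sham, and the floor gate at 44.8 and 27.6. The ceiling gate thus stood above every other population in each library, with intervals that did not overlap.

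In the ceiling gate 79.9% of SAH and 79.4% of sham cells had at least 1 Ackr4 UMI, and 58.8% and 58.0% after thinning. At least 5 UMIs were present in 49.9% of SAH and 44.7% of sham ceiling-gate cells. In the leukocyte gate 1 of 42 SAH and 0 of 103 sham cells had one. Over all LEC, Ackr4 had 410 CPM in SAH and 369 in sham, a fold of 1.11 [1.08, 1.15]. Without LEC that also carried stromal or leukocyte genes the fold was 1.00. It was 1.15 [1.10, 1.19] in the ceiling gate, 1.63 [1.27, 2.08] in the floor gate, 0.728 [0.537, 0.997] in the Marco gate and 0.980 [0.916, 1.05] in LEC with no gate. The floor-gate value came from 171 SAH and 112 sham UMIs, of which 10 cells held 65.5% and 67.0%. In the Marco gate 1 sham cell held 24 of 62 Ackr4 UMIs and 1 SAH cell 19 of 143, and without these cells the fold was 0.993 [0.685, 1.47].

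Outside LEC, Ackr4 was low. BEC had 9.75 CPM in SAH and 6.90 in sham, a fold of 1.41 [1.20, 1.67]. BEC with at least 2 UMIs of Lyve1 and Mmrn1 had 76.3 in SAH and 68.8 in sham, against 5.54 and 2.66 in the other BEC. With those cells moved to LEC the BEC fold was 2.08. Stroma had 5.30 in SAH and 5.42 in sham. Acad11, the antisense neighbour, had 14.7 CPM in SAH and 13.6 in sham LEC, and 16.4 and 15.9 in the ceiling gate.

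Against all genes, the count of receptors past 1.5-fold can be read beside the share of genes with at least 50 UMIs that were. In LEC, 0 of 4 receptors were at least 1.5-fold higher in SAH and 1, Ackr3, was at least 1.5-fold lower, against 7.89% and 5.03% of 12317 genes. In BEC, 0 of 4 were higher and 1, Ackr3, was lower, against 10.5% and 4.5% of 12858 genes. In stroma, where Ackr2 had too few UMIs, 0 of 3 were higher and 1, Ackr3, was lower, against 7.09% and 8.29% of 11184 genes. A count of 1 member is too small to set against these shares. Ackr3 itself lay low among all genes. A fold at or below that of Ackr3 was found for 203 genes in LEC (1.65%), 191 in BEC (1.49%) and 101 in stroma (0.903%).

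**Figure D3:**
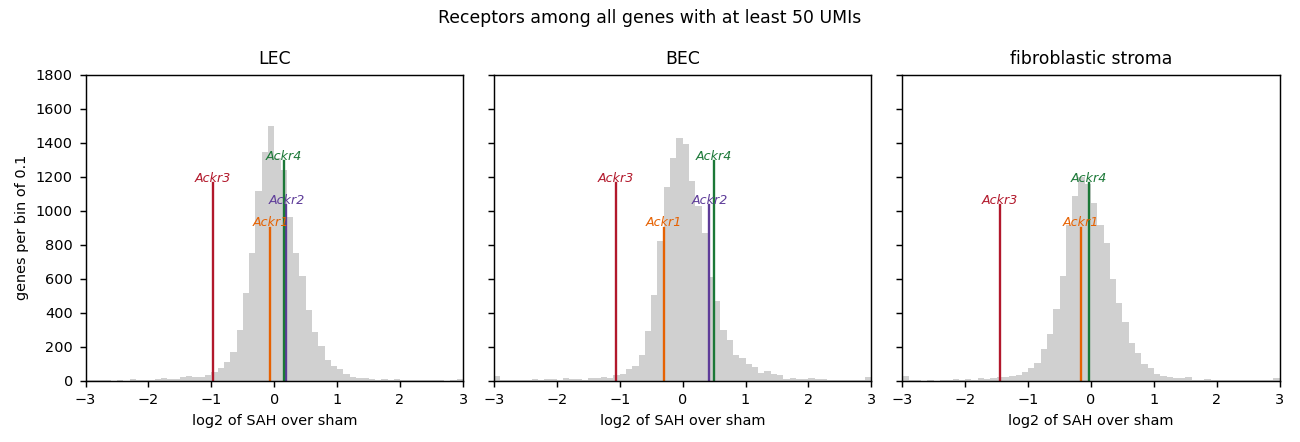
Number of genes by log2 of the SAH over sham level in bins of 0.1, for all genes with at least 50 UMIs over both libraries (values beyond 3 in the end bins); coloured lines mark the receptors, and their heights carry no value. Ackr3 lies at -0.98 in LEC, -1.06 in BEC and -1.45 in fibroblastic stroma, left of the bulk of genes.

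Receptors were also compared within cells, at 2000 UMIs per cell, as a description. Among LEC with an Ackr4 UMI, 21.7% of SAH [19.0, 24.6] and 38.2% of sham cells [34.9, 41.6] had Ackr3, against 9.33% and 12.9% of the LEC without Ackr4. Within the ceiling gate the shares were 20.1% with and 18.7% without Ackr4 in SAH, and 37.2% and 25.2% in sham. In the HEV gate only 6 SAH and 10 sham cells had Ackr4, too few to read that pair. Another pair, Ackr1 and Ackr3, was read there. Ackr3 was found in 1.92% of SAH and 2.69% of sham cells with Ackr1, against 7.79% and 6.67% of the cells without. In the Pi16 gate Ackr3 was found in 3 of 3 SAH and 10 of 11 sham cells with Ackr1. Without Ackr1 it was found there in 26 of 52 SAH and 34 of 53 sham cells.

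The ligands of these receptors were read in the same cells, from lists of the receptors' known ligands. The lists were chosen with earlier results of these data known. Shares over all genes are therefore given as a scale and are not independent support for the lists. The ACKR1 list of 8 inflammatory chemokines differed by class. In LEC all 7 with at least 50 UMIs were at least 1.5-fold lower in SAH, and in stroma 6 of 6 were, while in BEC 1 was higher and 1 lower of 7. Of all genes with at least 50 UMIs, 5.03% in LEC, 4.5% in BEC and 8.29% in stroma were lower by that margin. Higher by that margin were 7.89%, 10.5% and 7.09%. The median log2 fold of the list was -1.36 in LEC, -0.15 in BEC and -1.33 in stroma, where the median of all genes was 0.004, 0.026 and -0.059. Ccl2, which draws monocytes, had 17.8 CPM in SAH and 115 in sham LEC, and 227 and 865 in stroma. In BEC, Ccl2 stood at 34.9 and 48.2. Cxcl1, which draws neutrophils, had 96.5 in SAH and 198 in sham LEC, 537 and 1117 in stroma, and 139 and 145 in BEC. The ACKR2 list shares Ccl2, Ccl5, Ccl7 and Ccl11 with the ACKR1 list, and these 4 were its lower members in LEC. The other member measured in LEC, Ccl4, was higher in SAH, with 56 UMIs in SAH and 2 in sham, a ratio of 22.9 [6.05, 194]. Its level was low, at 2.47 CPM in SAH and 0.108 in sham LEC. The difference was not particular to LEC, since Ccl4 had 56 and 3 UMIs in BEC and 5 and 0 in stroma. Whether a few cells held these UMIs was not tested. In BEC 2 of 5 members of the ACKR2 list were at least 1.5-fold higher and 1 lower, and in stroma 3 of 3 were lower.

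Of the ACKR3 ligands, Cxcl12 and Adm were measured, and Cxcl11 was not analysed here. Cxcl12, which binds ACKR3 and the signalling receptor CXCR4, had 586 CPM in SAH and 503 in sham LEC, a fold of 1.16 [1.13, 1.20]. In BEC it had 1595 in SAH and 1063 in sham, a fold of 1.501 [1.48, 1.52], and in stroma 6614 and 7304, a fold of 0.906 [0.896, 0.916]. So Cxcl12 was not lower with Ackr3 in LEC and BEC. Its level was highest in stroma. Cells with at least 3 UMIs of Dcn and Col3a1 made up 28.6% of SAH and 18.2% of sham LEC, and 13.9% and 7.52% of BEC. Their part in the Cxcl12 values of LEC and BEC was not tested. Adm, the gene of adrenomedullin, had 49.0 in SAH and 64.1 in sham LEC, and 45.1 and 51.7 in stroma. Cxcr4 was low and was also lower in SAH, with 12.3 in SAH and 24.1 in sham BEC, a fold of 0.509 [0.454, 0.571], 3.74 and 7.92 in LEC, and 7.71 and 18.1 in stroma. Calcrl and Ramp2, which together form an adrenomedullin receptor, had folds of 1.16 and 0.983 in LEC and 1.02 and 0.828 in BEC.

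**Figure D4:**
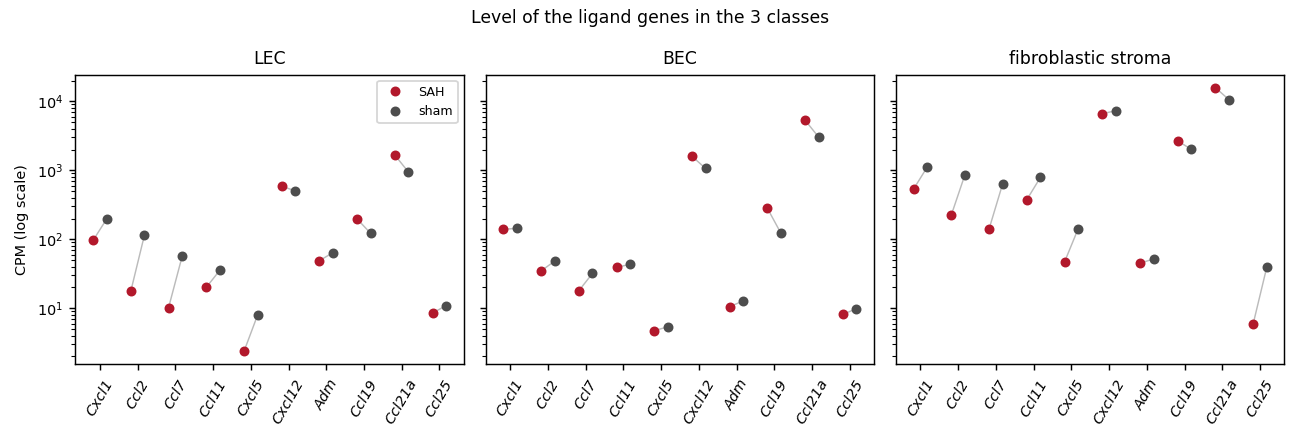
Level of 10 ligand genes (CPM, log axis) in LEC, BEC and fibroblastic stroma, SAH in red left of sham in grey, with grey lines joining the libraries. Cxcl1, Ccl2, Ccl7, Ccl11 and Cxcl5 lie lower in SAH in LEC and stroma, and Ccl19 and Ccl21a lie higher in SAH in all 3 classes.

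The ACKR4 ligands Ccl19 and Ccl21a, which guide T cells and dendritic cells through CCR7, were higher in SAH. Ccl19, summed over a pair of entries with that symbol, had 197 CPM in SAH and 121 in sham LEC, 280 and 122 in BEC, and 2677 and 2004 in stroma. Ccl21a had 1657 in SAH and 941 in sham LEC, 5300 and 3012 in BEC, and 15736 and 10532 in stroma. Ccl21a has near-identical copies in the mouse genome, so its counts are uncertain. Of 3 ACKR4 ligands, 2 were at least 1.5-fold higher in LEC and in BEC, and none was in stroma. The share of all genes with at least 50 UMIs that were higher by that margin was 7.89% in LEC, 10.5% in BEC and 7.09% in stroma. Ccl25, the ligand of CCR9, was at least 1.5-fold lower in stroma, with 5.95 in SAH and 39.2 in sham. Levels of Ccl19 and Ccl21a were highest in stroma, and the larger share of LEC and BEC with Dcn and Col3a1 in the SAH library moves with the higher values in LEC and BEC. Its part was not tested.

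Of 12 signalling receptors that share these ligands, few were detected: 3 in LEC, 4 in BEC and 3 in stroma had at least 50 UMIs. None was at least 1.5-fold higher, and 1, 2 and 1 were at least 1.5-fold lower, among them Cxcr4 in each class. Ccr7 was the other one in BEC, with 2.56 CPM in SAH and 4.19 in sham. The share of all genes with at least 50 UMIs that were lower by that margin was 5.03% in LEC, 4.5% in BEC and 8.29% in stroma. Of the further scavenging receptors, Gpr182, an endothelial receptor that takes up chemokines, had 498 CPM in SAH and 330 in sham LEC, a fold of 1.51 [1.47, 1.56]. In BEC, Gpr182 was at 127 in SAH and 99.5 in sham. Ccrl2, which binds chemerin, was at 35.9 in SAH and 28.2 in sham BEC. Of 7 arrestins and receptor kinases measured, Arrb1, the adaptor beta-arrestin 1, was at least 1.5-fold higher in LEC, at 188 in SAH and 124 in sham, and in stroma, at 68.3 and 44.6. None of the 7 was lower by that margin in any class. Among all genes with at least 50 UMIs, 7.89% in LEC, 10.5% in BEC and 7.09% in stroma were higher by that margin.

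The genes whose levels followed each receptor most closely over the gated populations were found by Pearson's r of log2 levels with 10 added, over 26 points, which are 13 populations in 2 libraries. The points share their library, and 5296 genes were compared. For Ackr1 these were Oit1 (r = 0.93), Abca2 (0.87) and Serpina1e (0.83), each highest in the HEV gate. For Ackr2 they were Galnt1 (0.93), Ide (0.93) and Usp24 (0.92), highest in the ceiling or Marco gate. For Ackr3 they were Plat (0.87), Zyx (0.86) and Edn1 (0.86), highest in the Pi16 gate. For Ackr4 they were Dtx1 (0.99), Wipf3 (0.97) and Klrb1f (0.97), highest in the ceiling gate.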

How the data were processed

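The authors deposited UMI counts for each gene and barcode, unscaled, with cDNA tagged at the 5′ end per the labels. Cell Ranger 5.0, STAR, Seurat 3.0.2 and mm10 are named in the submitters' processing notes, and the matrix headers give 5.0.0. The annotation, strand use and intron counting are not given in the sources used here. The lowest barcode held 501 UMIs in the SAH and 502 in the sham library.

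Entries with one symbol were summed. Barcodes with at least 500 genes and at most 10% mitochondrial UMIs were kept. Scrublet (scanpy 1.11.5, expected rate 0.1) marked 6.36% of SAH and 5.23% of sham barcodes; these stayed in, and leaving them out was an alternative. Cells were gated by counts of single genes without clustering. Levels are counts per 1000000 (CPM) of a population's total with exact Poisson intervals, folds have exact conditional binomial intervals, and shares exact Clopper-Pearson intervals; UMIs from 1 cell are not independent, so intervals are too narrow. Genes needed at least 50 UMIs over both libraries for a fold count. Against a count of 0, 3 counts set the limit. No test was made. Named genes are the receptors, the listed ligands, receptors and adaptors, and the 3 genes with the highest r per receptor among genes of at least 50 CPM in a population, without gate, ribosomal, mitochondrial and predicted genes. The fold intervals were checked on simulated counts. The members and lists were chosen with earlier results of these data known. Python 3.11.15, numpy 2.4.6, scipy 1.17.1, pandas 2.3.3, R 4.3.3 and edgeR 4.0.16 (scaling only) were used. Positions come from a GENCODE annotation of GRCm38.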

Additional observations from a re-analysis of the deposited data

Results flagged for a closer look

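Folds on both sides of 1, with intervals that exclude 1, were found for Ackr1 and Ackr4 in different populations of the same libraries. Whether the folds differ between populations was not tested. Ackr1 was 0.809-fold in the ceiling gate, 0.849 in the HEV gate, 0.611 in the venular gate and 0.607 in the remaining BEC, but 1.31-fold in the floor gate and 1.60-fold in LEC with several gates. Without cells with a UMI of Fut7 or Chst4 the floor-gate fold was 0.727 [0.524, 1.003], an interval that includes 1. The fold in LEC with several gates was then 1.21 [0.708, 2.13]. Without the top cell of each library, the Ackr1 fold was 1.21 [0.936, 1.56] in the floor gate and 1.77 [1.16, 2.77] in LEC with several gates. Ackr4 was 0.728-fold in the Marco gate and 0.192-fold in the venular gate, from 7 SAH and 36 sham UMIs. The Marco-gate value rested on single cells, since the top cell held 19 of 143 UMIs in SAH and 24 of 62 in sham. Without these the levels were 60.4 CPM in SAH and 60.9 in sham, a fold of 0.993 [0.685, 1.47]. In the other populations Ackr4 was 1.15-fold in the ceiling gate, 1.63 in the floor gate, 1.59 in LEC with several gates, 1.66 in the HEV gate, 2.00 in the arterial gate, 1.59 in the remaining BEC and 3.64 in the Ccl19 gate, the last from 38 SAH and 6 sham UMIs.

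The receptors also gave counts in cells and barcodes that no comparison uses, above the limit that a count of 0 allows. In kept cells outside every gate, Ackr1 had 21.4 CPM in SAH and 26.5 in sham, Ackr2 10.7 and 14.2, Ackr3 38.9 and 87.1, and Ackr4 109 and 104. In barcodes that failed the cell filter, Ackr1 had 66.7 in SAH and 99.4 in sham, Ackr2 12.2 and 8.66, Ackr3 40.9 and 69.9, and Ackr4 64.0 and 57.2.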

How the results depend on the processing

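The 6 folds that answer the comparisons are those of Ackr1 in BEC, Ackr2 and Ackr4 in LEC, and Ackr3 in each class. They kept their direction under every alternative, but Ackr4 in LEC was 1.005 without mixed cells, next to no difference. The alternatives numbered 11 for each and 10 for Ackr3 in stroma. These were a stricter and no cell filter, stricter gates, no Scrublet doublets, no mixed cells, thinning, equal subgate shares, a pair of scaling factors, no top 10 cells and a wider LEC gate chosen after seeing the data. Ackr3 ranged from 0.480 to 0.534 in LEC, 0.459 to 0.500 in BEC and 0.336 to 0.467 in stroma, always at least 1.5-fold lower. Ackr3 was 0.480 in LEC without mixed cells, and in stroma 0.454 thinned and 0.467 at equal subgate shares. Ackr1 in BEC was 0.738 with the stricter cell filter, 0.853 without mixed cells, 0.847 thinned and 0.922 with the wider LEC gate. Ackr4 in LEC was 1.16 without doublets, 1.00 without mixed cells and 1.07 thinned. Ackr1 in LEC, 0.958, ran from 0.547 to 1.14 and lay below 1 in 8 of 11 alternatives. Ackr2 in BEC was 2.08 thinned and at least 1.5-fold higher in 2 of 11 alternatives. Ackr4 in BEC, 1.41, ran from 1.32 to 2.08 and was at least 1.5-fold higher in 4 of 11. Values without the top cell, or without LEC with a UMI of Fut7 or Chst4, were also chosen after seeing the data. Ackr3 in the Marco gate was 0.645 without the top cell. With no minimum count, the genes past 1.5-fold made up 22.7% in place of 12.9% in LEC, 24.7% in place of 15.0% in BEC and 24.4% in place of 15.4% in stroma. Beyond the construction of each alternative, the cause of these shifts was not tested. No paired analysis was possible because each group is 1 library. Leaving out a replicate was not possible for the same reason. Animal, surgery, library and group cannot be told apart. Gates by single UMIs miss cells at low depth, and populations of under 100 cells, such as the Pi16 gate, give wide intervals.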

Other observations

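Within the HEV gate, cells that also held at least 2 UMIs of Lyve1 and Mmrn1 had more Ackr1 than the others in both libraries, a division chosen after the values were seen. In the SAH library 95 such cells had 659 CPM of Ackr1 [612, 709], against 532 [517, 548] in the other 983. In the sham library 125 such cells had 977 [930, 1026], against 575 [559, 592] in the other 860. Ackr1 was detected in 90.5% of these cells in SAH and 95.2% in sham, against 66.3% and 70.3% of the other HEV-gate cells. These shares were not taken at equal depth. The Ackr4 level of the cells with Lyve1 and Mmrn1 was 17.02 CPM in SAH and 11.03 in sham. It was 4.08 and 1.79 in the other HEV-gate cells and 410 and 369 in LEC. Whether the cells with Lyve1 and Mmrn1 hold RNA of lymphatic cells was not tested.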
